A study of Mus musculus with 6 samples.

Results

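Enzymes that write or erase methyl groups on histones were followed in transformed mouse progenitor cells treated with an inhibitor of G9a and GLP, the enzymes that place most mono- and dimethylation of histone H3 at lysine 9 (H3K9) in euchromatin. The set holds the genes whose symbol starts with Kmt, Kdm, Prdm, Prmt, Setd, Smyd or Nsd followed by a digit, together with Ezh1, Ezh2 and Dot1l. Of 19937 genes with a probe set that carries a single symbol, 65 met this rule. The rule uses names and no measured value. The rule leaves out G9a (Ehmt2) and GLP (Ehmt1) themselves, and it leaves out enzymes that carry other names, such as Carm1.

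The cells were mouse haematopoietic stem and progenitor cells (HSPCs) transformed by expression of HoxA9 and Meis1, called A9M cells in the labels, and all groups carried both transforming genes and grew in the cytokines IL3, IL6 and SCF. The control group received the solvent DMSO for 5 days (3 arrays) and the other group received UNC0638 for 5 days (3 arrays). UNC0638 is a small molecule that inhibits G9a and GLP, and the comparison asked which transcripts differ when that activity is blocked. No dose is given in the labels, nothing says that the replicates were separate cultures, and so p-values measure only how far these samples scatter, which may be technical scatter. RNA was read on Affymetrix whole-transcript arrays, where the unit is a fluorescence intensity per probe set. Intensities of different probe sets are not comparable as levels, so each gene is compared only with itself across arrays. Sums over a gene list are given as a description, and bright probe sets weigh most in them.

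Histone methyltransferases fall into a few enzyme classes. Most lysine methyltransferases use a SET domain, Dot1l is the exception with another fold, and the Prmt enzymes methylate arginine. Lysine demethylases are either amine oxidases (the Kdm1 genes) or Jumonji dioxygenases, which need iron, oxygen and 2-oxoglutarate. In acute leukaemias with high Hox gene expression the H3K4 methyltransferase Kmt2a, the H3K79 methyltransferase Dot1l, the H3K27 methyltransferase Ezh2 and the demethylase Kdm1a are known as regulators of self-renewal and of Hox gene expression.

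Among all 65 members, 1 rose and 0 fell after UNC0638. The gene that rose was Kdm7a, a Jumonji demethylase that removes dimethylation from H3K9 and H3K27, by 1.68-fold on the log2(intensity + 16) scale. The largest difference in the other direction was that of the arginine methyltransferase Prmt5, at 0.68 of the DMSO level on the same scale, just short of the threshold. Over all 19937 genes tested with limma at a Benjamini-Hochberg adjusted p of 0.05, 134 were called (0.672%). Of these, 74 were higher (0.371%) and 60 lower (0.301%). Among the 12038 genes above background (defined below), 69 were higher and 58 lower. Beside these shares stands the 1 call among the 65 members, which cannot show an excess. Of the 134 calls over all genes 55.2% were higher, and median centring of the arrays brought that share to 43.5%. At an unadjusted limma p under 0.05, 10 members differed, which was 15.4% of the members against 12.7% of all genes. Of these 4 were higher and 6 lower, where 6.47% of all genes were higher and 6.21% lower. The 3 arrays of a group all lay beyond the 3 of the other group in 13 members (20% of the members), against 17.0% of all genes. Of the 13, 6 lay above and 7 below, where 9.59% of all genes lay above and 7.4% below. These shares are near the background. The median log2 difference over the members was -0.0032, and that over all genes was 0.012. The median absolute difference was 0.097 in the members and 0.089 in all genes. Above background, as defined below, it was 0.097 in the members and 0.117 in all genes. There 17.5% of the members and 18.3% of all genes had an unadjusted limma p under 0.05.

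Precision was set by the 3 arrays in each group. The 95% confidence interval reached 0.24 on the log2 scale to either side of the difference in the median member. Of the 64 members that did not pass, 55 had an interval that lay within a 1.5-fold change in either direction. The other 9 could hold a larger change that 3 arrays do not resolve. A probe set was called near background where its mean over the 6 arrays lay below 45.3, the 95th percentile of the 1027 olfactory receptor genes on the array, which are mostly silent outside the nose. Of the members, 8 lay there (Kdm4d, Prdm9, Prdm13, Prdm14, Prmt8, Setd4, Smyd1 and Smyd4), and for these a difference could be hidden. All 8 count among the 55 above, and without them the count was 47 of 56.

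**Figure D1:**
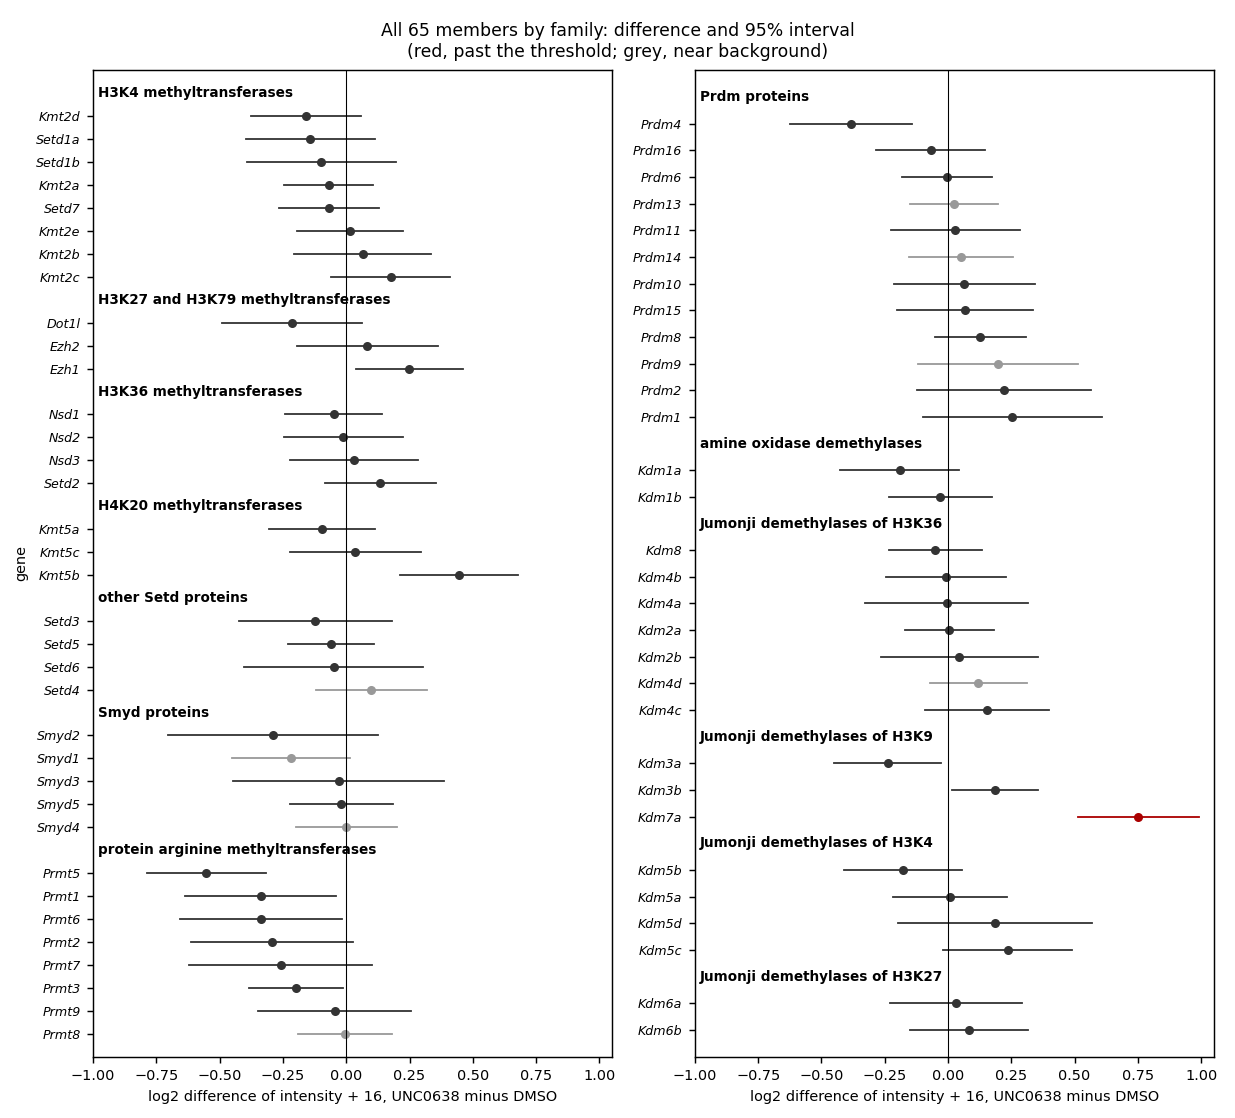
Log2 difference of intensity (plus a pseudocount of 16) between UNC0638 and DMSO for all 65 members, grouped by family, with points at the fitted difference and bars for the 95% confidence interval from limma, 3 arrays in each group. Kdm7a, in red, is the 1 member past the threshold, 8 members in grey lie near background, and the 8 Prmt genes all lie at or left of 0.

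**Figure D2:**
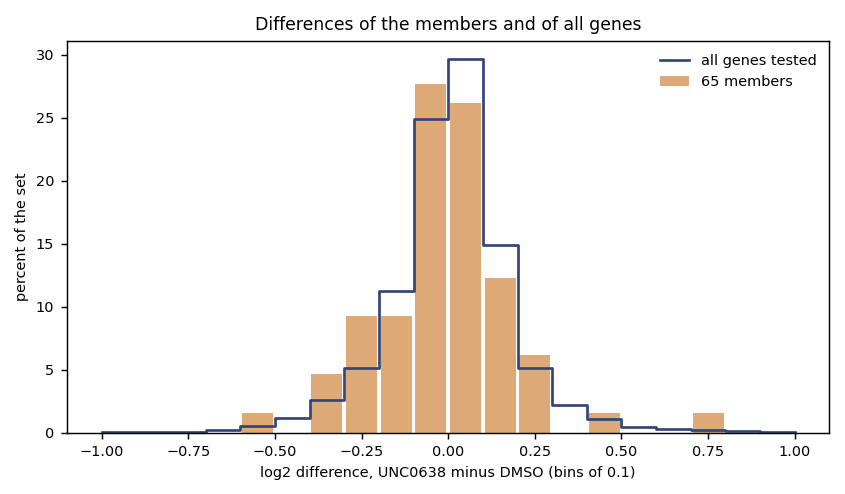
Share of the 65 members (bars) and of all 19937 genes (line) in each bin of 0.1 of the log2 difference between UNC0638 and DMSO. Both sets centre near 0, and 39 of all genes and 0 of the members lie beyond the plotted range of 1 in either direction.

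Upstream sequences are shown for the pair of members with the largest positive differences (Kdm7a and Kmt5b), for Prmt5 and Prmt1 from the family in which every difference was negative, and for Kdm3a, whose induction by low oxygen is well known. Each is the 250 bases before the annotated start in RefSeq, build GRCm38.p6, written 5′ to 3′ on the strand of the gene. For Kmt5b and Kdm3a the first of 2 and of 3 listed starts is shown. Capitals mark ACGTG or GCGTG, the core that hypoxia-inducible factors bind, on either strand (CACGT or CACGC where it lies on the opposite strand). They include CACGTG, the E-box bound by Myc and Max, which contains ACGTG.
Kdm7a (chr6:39206774-39207023, minus strand): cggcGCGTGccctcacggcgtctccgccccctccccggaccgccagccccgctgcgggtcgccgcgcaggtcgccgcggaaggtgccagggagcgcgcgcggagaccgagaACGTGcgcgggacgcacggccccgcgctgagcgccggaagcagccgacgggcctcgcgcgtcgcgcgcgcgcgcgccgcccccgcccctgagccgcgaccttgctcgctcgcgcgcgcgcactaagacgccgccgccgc
Kmt5b (chr19:3767171-3767420, plus strand): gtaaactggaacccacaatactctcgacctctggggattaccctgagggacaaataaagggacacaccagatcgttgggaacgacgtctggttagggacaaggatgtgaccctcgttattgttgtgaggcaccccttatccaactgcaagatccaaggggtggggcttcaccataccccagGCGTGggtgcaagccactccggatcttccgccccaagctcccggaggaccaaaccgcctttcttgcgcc
Prmt5 (chr14:54517471-54517720, minus strand): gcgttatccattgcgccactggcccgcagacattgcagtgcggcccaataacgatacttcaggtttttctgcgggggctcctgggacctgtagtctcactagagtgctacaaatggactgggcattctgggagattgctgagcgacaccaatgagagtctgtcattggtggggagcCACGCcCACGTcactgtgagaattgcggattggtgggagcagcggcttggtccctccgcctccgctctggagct
Prmt1 (chr7:44986421-44986670, minus strand): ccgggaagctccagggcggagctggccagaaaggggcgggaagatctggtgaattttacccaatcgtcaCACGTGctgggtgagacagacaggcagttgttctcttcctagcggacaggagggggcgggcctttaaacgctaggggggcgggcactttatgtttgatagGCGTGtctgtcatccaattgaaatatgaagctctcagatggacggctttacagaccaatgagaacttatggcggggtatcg
Kdm3a (chr6:71632918-71633167, minus strand): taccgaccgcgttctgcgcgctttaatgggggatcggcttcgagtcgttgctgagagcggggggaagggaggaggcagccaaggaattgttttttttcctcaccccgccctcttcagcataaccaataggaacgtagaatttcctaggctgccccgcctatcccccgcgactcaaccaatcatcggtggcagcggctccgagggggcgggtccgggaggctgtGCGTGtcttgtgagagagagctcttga
The Kdm7a window is 82.0% G and C with 56 CpG dinucleotides. The other windows hold 56.4% (Kmt5b, 11 CpG), 58.0% (Prmt5, 13 CpG), 54.8% (Prmt1, 13 CpG) and 59.6% (Kdm3a, 20 CpG). Over the 50 members with an entry in the table, the median was 59.6% with 15 CpG, against 52.0% with 6 CpG over 27025 genes. ACGTG or GCGTG was present in 62.0% of the members' windows and in 38.6% of all windows, and the core itself holds a CpG. CACGTG was present in 3 of the 50 windows (6.0%), Prmt1 and Prmt3 among them, and in 6.05% of all windows. These matches describe letters and show no binding.

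Kdm3a, Kdm3b and Kdm7a, Jumonji demethylases that act on H3K9 and are taken here apart from the Kdm4 genes, held the 1 member that changed. The differences of these 3 did not share a direction. Kdm7a gave intensities of 323, 261 and 290.1 under DMSO against 451, 509 and 543 under UNC0638, so every UNC0638 array lay above every DMSO array. It rose from 291 ± 30.9 to 501 ± 46.4 (SD, n = 3 each, log2 difference 0.75, SE 0.10, limma adjusted p = 0.0258, probe set 10544150). A separate probe set of the gene, 10544148, read 297, 258 and 265 under DMSO against 443, 506 and 559.6 under UNC0638 (log2 difference 0.84, SE 0.10, adjusted p = 0.0225 when every single-gene probe set was tested), so both probe sets gave a like difference. The call was not stable to leaving out an array. It held without DMSO 1 (adjusted p = 0.0323) and was lost without DMSO 2 (0.0811), DMSO 3 (0.0719), UNC0638 1 (0.0682), UNC0638 2 (0.106) or UNC0638 3 (0.0851), while the difference stayed between 0.68 and 0.82. Over all 15 alternatives adjusted p ran from 0.0129 to 0.106. It was also lost with a pseudocount of 64 (0.0559).

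The other members of that group did not pass. Kdm3b, which removes mono- and dimethylation from H3K9, read 727, 719 and 703 with DMSO and 786, 817 and 847 with UNC0638. Its groups did not overlap, and the log2 difference was 0.18 (95% interval 0.016 to 0.35, limma adjusted p = 0.346). Kdm3a, its close relative and a gene induced by low oxygen, read 266, 262 and 256 with DMSO and 196, 219 and 244 with UNC0638. Here every UNC0638 array lay below every DMSO array, with a log2 difference of -0.24 (interval -0.45 to -0.028, limma adjusted p = 0.326). Of 16 hypoxia-inducible transcripts in a list, 6 fell, where 0.301% of all genes did, 0 rose and 14 lay below 0. This list was chosen with earlier results of these data known, so the count describes it and is no test. The count of 6 was 2 with a pseudocount of 1 or 64, 1 without DMSO 1 or DMSO 3, and 0 without DMSO 2 or any of the UNC0638 arrays. Their summed intensity was 19075 to 21151 on the DMSO arrays and 14200 to 15295 on the UNC0638 arrays. Their part in the value of Kdm3a was not tested.

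Some listed markers of myeloid maturation also differed between groups, beside the rise of Kdm7a. The marker lists were chosen with earlier results of these data known. Their counts beside the share of all genes are therefore a description and no test of the lists. Of 12 markers of mature neutrophils, 3 rose and 0 fell (Cxcr2, Chil3 and Ltf), where 0.371% of all genes rose. The summed intensity was 15757 to 16683 on the DMSO arrays and 19232 to 22210 on the UNC0638 arrays. The neutrophil count was 1 with a pseudocount of 64 or without DMSO 1, UNC0638 2 or UNC0638 3. It was 2 under median centring or without DMSO 3, and 4 with the filter on dim genes. Of 12 markers of monocytes and macrophages, 3 rose and 0 fell (Itgax, Gpnmb and Mpeg1), with sums of 18589 to 23028 and of 25994 to 27229. The 1 marker of that list below 0 was at -0.35, with all UNC0638 arrays below all DMSO arrays. The monocyte and macrophage count of 3 was 1 with a pseudocount of 1 or under median centring, and 2 with a pseudocount of 64. It was 1 when any array other than UNC0638 1 was left out. The list for mast cells had 2 of 7 that rose (Cma1 and Tpsb2), and its sums overlapped between groups (5002 to 6259 and 6138 to 6933). Its 1 marker below 0 was at -0.12, with all UNC0638 arrays below all DMSO arrays. The mast cell count was 1 without DMSO 1 and 0 without DMSO 2 or UNC0638 2. Without UNC0638 1 the count was 0 in all 3 lists. Near background lay 2 of the 12 neutrophil markers, 0 of the 12 monocyte and macrophage markers and 2 of the 7 mast cell markers. The part of these markers in the results for the members was not tested. In a bulk culture, more cells of a type and more RNA per cell cannot be told apart. The 15 markers of the labelled cells, the transforming genes among them, had 0 past the threshold (2 under quantile normalization) and 0 near background. Their summed intensities were 30289 to 31243 and 30991 to 33059. At an unadjusted limma p under 0.05, 5 of the 15 were higher and 0 lower, against 6.47% and 6.21% of all genes. All UNC0638 arrays lay above all DMSO arrays in 5 and below in 0, against 9.59% and 7.4%. Below 0 lay 4 of the 15. In the list for lymphocytes 0 of 9 measured genes changed and 6, Cd79a, Ms4a1 and Cd3d among them, lay near background (sums of 282 to 298 and 311 to 361). The lists for erythroid cells and megakaryocytes (6 measured, 1 near background, sums of 974 to 1208 and 757 to 961) and for fibroblasts (6 measured, 2 near background, sums of 322 to 373 and 359 to 394) had 0 that changed. The sums of the lymphocyte list did not overlap, and 8 of its 9 measured genes lay above 0 (median 0.13). The sums of the erythroid and megakaryocyte list did not overlap either. Yet 4 of its 6 genes lay above 0 (median 0.073), and the lowest was at -0.66.

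**Figure D3:**
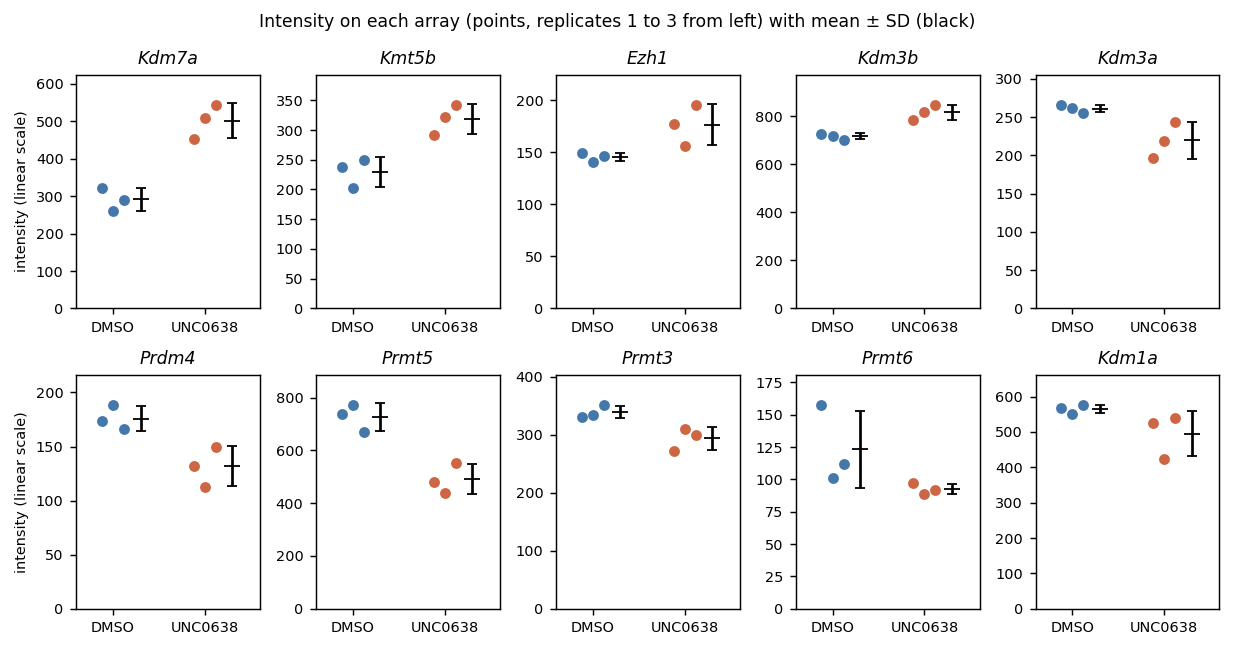
Intensity of 10 members on each array, on a linear scale from 0, with points for replicates 1 to 3 of DMSO (blue) and UNC0638 (orange) and the mean ± SD in black. The 10 were taken from the 13 members whose groups do not overlap, as was the case in 17.0% of all genes. Of the 10, only Kdm7a passed the threshold. Kdm7a has at most 323 on a DMSO array and at least 451 on a UNC0638 array.

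All 8 Prmt genes, which encode protein arginine methyltransferases, had log2 differences below 0, whereas 46.1% of all genes did. Among genes above background, where all but 1 of the 8 lay, the share below 0 was 51.4%. None of them passed the threshold. The median of the 8 was -0.28, and 4 of the 8 had an unadjusted limma p under 0.05, all of them lower. That compares with 6.21% of all genes, and with 1167 of the 12038 genes above background. Between 7 and 8 were below 0 when an array was left out. Neither scaling turned a sign, but over all genes both lower the differences, with 54.5% below 0 under quantile normalization and 61.1% under median centring. Under quantile normalization the median of the 8 was -0.29, while Prmt5 (-0.52) and Prmt1 (-0.31) moved toward 0. Prmt5, the main enzyme of symmetric arginine dimethylation, read 738, 770.4 and 669 under DMSO against 481, 439.9 and 553 under UNC0638. These groups lay wide apart, from 726 ± 51.9 to 491 ± 57.1 (SD, n = 3 each, log2 difference -0.55, SE 0.10, limma adjusted p = 0.0631, probe set 10419759). It passed in 1 of 15 alternatives, the filter on dim genes (adjusted p = 0.0448), with a range of 0.0448 to 0.204 over all of them. Its obligate partner Wdr77, a WD-repeat protein, read 436, 429.7 and 401 with DMSO and 329, 272 and 383 with UNC0638. No UNC0638 array reached a DMSO array there, at a log2 difference of -0.36 (limma adjusted p = 0.246).

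Prmt1, the main enzyme of asymmetric arginine dimethylation, read 940.2, 952 and 713 with DMSO and 743, 601 and 698 with UNC0638. The groups overlapped through the array DMSO 3, and the log2 difference was -0.34 (interval -0.64 to -0.039, limma adjusted p = 0.327). Prmt3, which methylates a ribosomal protein, read 331, 334 and 350.5 with DMSO and 272, 309 and 299.6 with UNC0638, with no overlap and a log2 difference of -0.20 (adjusted p = 0.356). Prmt6, which methylates arginine on histone H3, read 157, 101 and 112 with DMSO and 97.2, 89.1 and 91.8 with UNC0638. The array DMSO 1 stood well above the others in that gene, and the log2 difference of -0.34 (adjusted p = 0.363) became -0.17 without DMSO 1. Prmt2 (-0.29) and Prmt7 (-0.26) overlapped between groups. Prmt9, which methylates a splicing factor, was at -0.046, and the brain enzyme Prmt8 lay near background with a mean of 14.1.

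Carm1, an arginine methyltransferase and transcriptional coactivator also known as Prmt4, falls outside the naming rule and was the 1 gene called among 58 measured partner genes and related enzymes. It read 345, 292 and 267 under DMSO against 184, 177 and 175 under UNC0638. The groups were far apart and the UNC0638 arrays close together. It fell from 301 ± 39.9 to 179 ± 4.81 (SD, n = 3 each, log2 difference -0.70, SE 0.10, limma adjusted p = 0.0285, probe set 10583676). Over 15 alternatives adjusted p ran from 0.0157 to 0.116. It held without DMSO 3 (0.0392) and was lost without DMSO 1 (0.0539), DMSO 2 (0.0904), UNC0638 1 (0.0997), UNC0638 2 (0.116) or UNC0638 3 (0.0975), and with a pseudocount of 64 (0.0678). Of the 6 listed partners of arginine methyltransferases, 0 passed and 5 lay below 0. Clns1a, which hands spliceosomal proteins to Prmt5, was at -0.16, and Riok1 and Coprs, other adaptors of Prmt5, were at -0.18 and -0.062. Btg1 and Btg2, which bind Prmt1, lay at -0.22 and 0.30. Jmjd6, a Jumonji protein that hydroxylates lysine and has been linked to arginine demethylation, was at -0.50 (limma adjusted p = 0.11), a gene chosen after its values were seen.

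**Figure D4:**
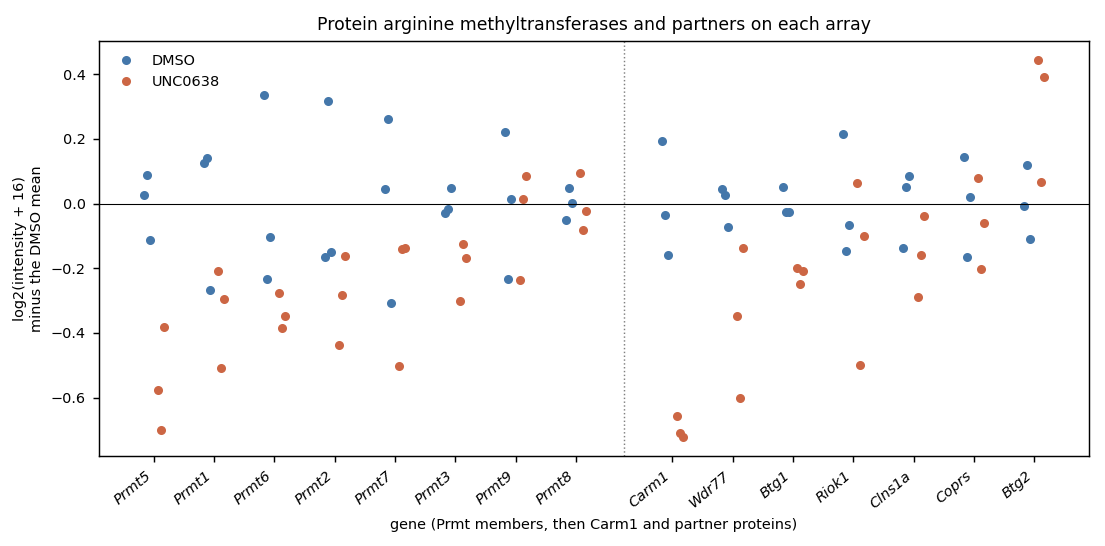
Each array's log2(intensity + 16) minus the mean of the DMSO arrays, for the 8 Prmt genes (left of the dotted line), then Carm1 and 6 partner genes, with DMSO in blue and UNC0638 in orange. The UNC0638 points of Prmt5, Prmt3, Prmt6, Carm1, Wdr77 and Btg1 all lie below the DMSO points, while those of Prmt8 and Prmt9 overlap them.

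Of the 3 H4K20 methyltransferases, Kmt5b differed most. This enzyme, which adds further methyl groups to H4K20 that is already monomethylated, read 239, 202 and 249 under DMSO against 292, 321 and 342 under UNC0638. All UNC0638 arrays were above all DMSO arrays, from 229.9 ± 24.9 to 319 ± 25.03 (SD, n = 3 each, log2 difference 0.45, SE 0.10, limma adjusted p = 0.107). It passed in none of the 15 alternatives, where adjusted p ran from 0.0866 to 0.278. Kmt5a, which places the first methyl group on H4K20, read 613, 715 and 711 with DMSO and 595, 637 and 668 with UNC0638. Its groups overlapped, at -0.10 (interval -0.31 to 0.11). Kmt5c, the relative of Kmt5b that acts mainly in heterochromatin, was at 0.036 (interval -0.22 to 0.30).

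None of the H3K27 and H3K79 methyltransferases passed. Ezh1, the catalytic subunit of Polycomb repressive complex 2 that prevails in resting cells, read 149, 141 and 147 with DMSO and 178, 157 and 196 with UNC0638. The groups did not overlap, and the log2 difference was 0.25 (interval 0.037 to 0.46, limma adjusted p = 0.306). Ezh2, the subunit that prevails in dividing cells, read 999, 958 and 1098 with DMSO and 1014, 953 and 1295 with UNC0638. Those groups overlapped, at 0.083 (interval -0.20 to 0.36), and the value was -0.048 without UNC0638 3, the array with the highest signal for this gene. Whether Ezh1 and Ezh2 differed from each other in response was not tested. Of 10 partners in the complex 0 changed, with a median of -0.025. Jarid2, which helps to recruit the complex, had the largest difference at 0.31 (adjusted p = 0.247), with readings of 293, 279 and 305 with DMSO and 358, 325 and 419 with UNC0638. Dot1l read 235, 223 and 173 with DMSO and 165, 195 and 173 with UNC0638, with overlap and a difference of -0.22 (interval -0.49 to 0.06). Of 8 partners in its elongation complexes 0 changed, and Aff1 was furthest at 0.34 (adjusted p = 0.246), with no overlap between groups.

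The 8 genes grouped here under H3K4 methylation had 0 that changed, 0 at an unadjusted limma p under 0.05 and 0 whose groups did not overlap. Their differences ran from -0.16 (Kmt2d) to 0.18 (Kmt2c). Kmt2a, the gene broken in MLL-rearranged leukaemia, read 354, 395 and 375 with DMSO and 349, 365 and 354 with UNC0638. These readings overlap, and the interval of -0.25 to 0.11 around -0.07 lay well within a 1.5-fold change. Kmt2c, an enhancer enzyme and tumour suppressor in myeloid leukaemia, read 284, 238 and 238 with DMSO and 258, 299 and 306 with UNC0638. Kmt2e read 942, 897 and 937 with DMSO and 834, 974 and 1007 with UNC0638, at 0.016, and under median centring, which lowers every difference by 0.046, it was at -0.030. Kmt2b (0.066), the broad promoter enzymes Setd1a (-0.14) and Setd1b (-0.10), and Setd7 (-0.067), which also methylates non-histone proteins, gave overlapping groups. Among 12 shared subunits and partners of these complexes, 0 changed, and menin (Men1), which tethers Kmt2a to chromatin, was furthest at -0.27 (adjusted p = 0.484).

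H3K36 methylation rests on Nsd1, Nsd2, Nsd3 and Setd2, and none of them changed. Nsd1, Nsd2 and Nsd3, which add up to dimethylation, were at -0.05, -0.012 and 0.03, with intervals that stayed within a 1.5-fold change. Nsd2 read 771, 709 and 594 with DMSO and 672, 674 and 699.8 with UNC0638. Its signal on the UNC0638 arrays lay inside the DMSO range, and the sign turned under quantile normalization (0.026). Setd2, the enzyme of trimethylation, read 625, 644 and 659 with DMSO and 713, 629 and 788 with UNC0638 on the probe set with the higher mean. The groups overlapped there, at 0.13 (adjusted p = 0.651). Its other probe set, 10589587, read 389.9, 403 and 437 under DMSO against 514, 559 and 717 under UNC0638. On that one the groups did not overlap, with a difference of 0.51 (SE 0.13, adjusted p = 0.14 over all single-gene probe sets), so the probe sets of Setd2 gave unlike differences, neither of which passed.

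Of the 6 members with a pair of probe sets, Kdm7a and Setd3 gave differences of the same sign and similar size on both. Setd3, an actin histidine methyltransferase, read 359, 311 and 317 with DMSO and 242, 324 and 346 with UNC0638, at -0.12 and -0.16. Prdm2 was at 0.22 and 0.054 and Setd1b at -0.10 and -0.02. Kmt2d was at -0.16 and 0.074, with opposite signs. None of these passed on either probe set apart from Kdm7a.

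**Figure D5:**
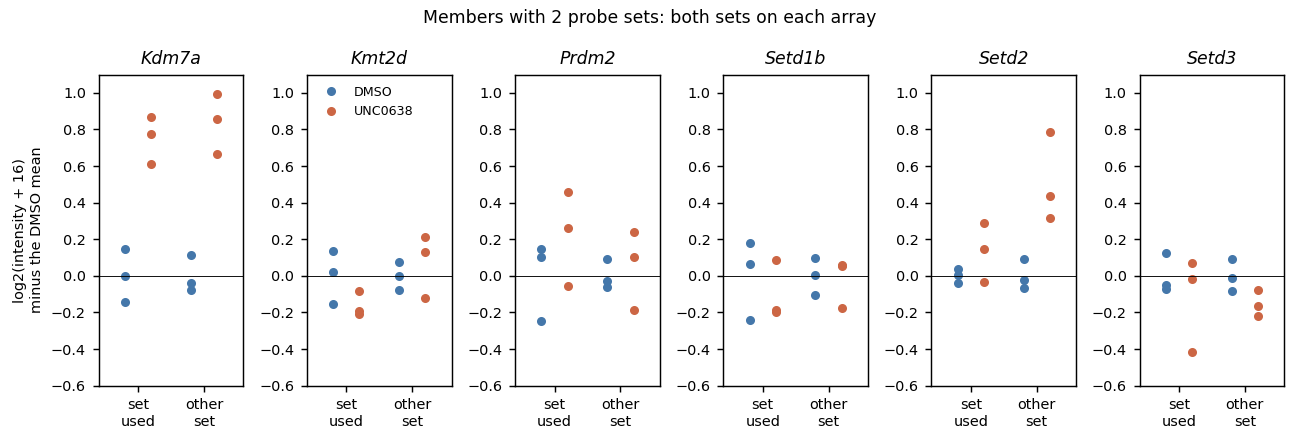
Each array's log2(intensity + 16) minus the mean of the DMSO arrays, for the 6 members with 2 probe sets, with the probe set used on the left of each panel, the other set on the right, DMSO in blue and UNC0638 in orange. Both probe sets of Kdm7a show all UNC0638 arrays above all DMSO arrays, whereas for Setd2 this holds for the other probe set alone.

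The amine oxidase demethylases Kdm1a and Kdm1b did not pass. Kdm1a (LSD1), which removes H3K4 methylation with the corepressor Rcor1, read 568, 551 and 575 with DMSO and 526, 422 and 538 with UNC0638. The UNC0638 arrays all lay below the DMSO arrays and 1 of them, UNC0638 2, lay far below, at a log2 difference of -0.19 (interval -0.43 to 0.044, limma adjusted p = 0.514). Without UNC0638 2 the difference was -0.084. Kdm1b was at -0.031. Of 10 measured partners of demethylase complexes 0 changed, and the neural corepressor Rcor2 was furthest at -0.42 (adjusted p = 0.21).

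None of the other Jumonji demethylases passed. For Kdm2a, Kdm2b, Kdm4a, Kdm4b, Kdm4c, Kdm4d and Kdm8, grouped here as the Kdm2, Kdm4 and Kdm8 genes with known substrates among H3K36 and, for Kdm4, H3K9, the groups overlapped in each of the 7. Kdm4c had the largest difference of the 7, at 0.15, with readings of 439, 439 and 476 with DMSO and 495, 442 and 583 with UNC0638. Without UNC0638 3 it was 0.051. Kdm2a, a CpG island protein, was at 0.0053 with an interval of -0.17 to 0.18. Among the H3K4 demethylases, Kdm5c read 194, 211 and 157 with DMSO and 213, 238 and 215 with UNC0638. Its groups did not overlap, at 0.23 (interval -0.02 to 0.49, adjusted p = 0.448). Kdm5a read 427, 471 and 450.2 with DMSO and 421, 423 and 515 with UNC0638, with overlap and a difference of 0.0071. Kdm5b was at -0.18, and Kdm5d, the Y-linked copy of Kdm5c, at 0.18. The H3K27 demethylases Kdm6a, at 290.4, 246 and 331 with DMSO and 296, 272 and 316 with UNC0638, and Kdm6b, at 136, 128 and 120.2 with DMSO and 129, 158 and 124 with UNC0638, overlapped between groups. Their differences were 0.032 and 0.084.

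Of 12 Prdm genes, zinc finger proteins with a domain related to SET, 0 passed. Of the 12, 9 lay above 0 against 53.9% of all genes, and 7 did under quantile normalization or median centring or without DMSO 1, and 6 without UNC0638 2. Prdm4, which is known to recruit Prmt5, read 173, 188 and 166 with DMSO and 132, 113 and 149.8 with UNC0638. No UNC0638 array reached the DMSO range, at a log2 difference of -0.38 (SE 0.11, limma adjusted p = 0.164, and 0.134 to 0.381 over 15 alternatives). Prdm2 read 286, 215 and 278 with DMSO and 312, 247 and 359 with UNC0638, with overlap and a difference of 0.22 that ran from 0.098 to 0.36 as each array was left out. Prdm1 (Blimp1), a repressor in plasma cells and macrophages, was at 0.25 with overlap. Prdm8 was at 0.13 with no overlap, and Prdm16, a regulator of haematopoietic stem cells, was at -0.069. The remaining Prdm genes above background, Prdm6, Prdm10, Prdm11 and Prdm15, lay between -0.0032 and 0.066. Prdm9, which places the sites of meiotic recombination, and the developmental regulators Prdm13 and Prdm14 lay near background.

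The Smyd genes and the remaining Setd genes had 0 that passed. Smyd2, which methylates p53, read 322, 259 and 239 with DMSO and 177, 199 and 296 with UNC0638. The groups overlapped through UNC0638 3, at -0.29 (interval -0.70 to 0.13), and the difference ran from -0.49 to -0.15 as each array was left out. Smyd3 was at -0.03 and Smyd5 at -0.019. The muscle gene Smyd1, at -0.22, and Smyd4, at 0.00054, lay near background. Setd5 read 922, 936 and 885 with DMSO and 912, 856 and 862 with UNC0638, at -0.06 (interval -0.23 to 0.11), and Setd6, which methylates RelA, was at -0.05. Setd4 was at 0.10, near background.

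Beside these members, the 14 measured H3K9 methyltransferases and G9a partners had 0 that changed, 11 below 0 and a median of -0.062. The mRNAs of the inhibited enzymes themselves lay at -0.25 (Ehmt2, adjusted p = 0.293) and -0.04 (Ehmt1, adjusted p = 0.92), and the H3K9 trimethylating enzyme Setdb1 was furthest from 0 among the negative values, at -0.35 (adjusted p = 0.154). These values come from the same limma fit.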

How the data were processed

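The authors deposited a table of array intensities, already summarised per probe set, on a linear scale (2.74 to 19527, array medians 50.4 to 54.9). How the deposited intensities were summarised and normalized is not given in the sources used here, and such steps can shrink differences of dim probe sets. Biotin-labelled cRNA came from total RNA by the array maker's protocol, per the labels. Of 34760 probe sets, 21640 carry 1 symbol in the platform annotation, 1321 several and 11799 none, and only the first were tested. For genes with several probe sets (954 genes, 6 members) the brightest on average was used. Values were transformed as log2(value + 16), which understates changes of dim genes, and fitted over all 19937 genes in limma 3.58.1 (R 4.3.3, lmFit and eBayes) on group alone. The fit was tested on simulated data.

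The members are set by a naming rule that uses no value, but this rule, the families and the lists were chosen with earlier results of these data known. Genes named with values on each array are members past the threshold, members at an unadjusted p under 0.05 whose groups do not overlap, the member with the largest difference and the one with the highest mean in each family, and, in each partner list, members past the threshold or else the one with the largest difference. Members named beyond that rule account for the rest of the set. Alternatives were pseudocounts of 1 and 64, a filter on the dimmest 40% of genes, quantile normalization, median centring, the mean of a gene's probe sets, a robust prior with a trend, a block on replicate number, and leaving out the arrays 1 at a time. Testing each probe set on its own was added after seeing the data. Promoter sequences came from RefSeq (GRCm38.p6), where 50 of 65 members matched. Figures were drawn with matplotlib 3.10.9.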

Additional observations from a re-analysis of the deposited data

How the results depend on the processing

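The count of members past the threshold was 1, and it was 0 with a pseudocount of 64, 2 with the filter on dim genes (Kdm7a and Prmt5) and 0 to 1 as each array was left out. The count over all genes was 134, with 49 at a pseudocount of 64 and 10 to 69 as each array was left out. The count of partner genes was 1 (Carm1), with 0 at a pseudocount of 64 and 0 to 1 as each array was left out. Leaving out an array leaves fewer samples, and the cause of the other shifts was not tested. The members' median of -0.0032 was -0.023 under quantile normalization and -0.049 under median centring, where the median of all genes went from 0.012 to -0.014 and -0.034. It was -0.026 to 0.016 as each array was left out. Of 35 named genes, 27 kept their sign in all 15 alternatives. The calls of Kdm7a and Carm1 were each kept in 8 of the 15. Median centring lowers every difference by 0.046, so values between 0 and 0.046 turn by construction. Signs turned for Kdm5a (-0.039), Kdm6a (-0.014) and Kmt2e (-0.030) under median centring and Nsd2 (0.026) under quantile normalization. As each array was left out, signs turned in Ezh2 (-0.048 to 0.17), Kdm5a (-0.085 to 0.056), Kdm6a (-0.072 to 0.13), Kdm6b (-0.013 to 0.14), Kmt2e (-0.036 to 0.097), Nsd2 (-0.11 to 0.070), Setd3 (-0.22 to 0.026) and Ehmt1 (-0.093 to 0.0061).

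The labels number the replicates 1 to 3 in each group. Deviations of same-numbered arrays from their group means correlated across genes at -0.066, 0.11 and 0.017. Arrays with different numbers gave -0.13 to 0.11. These values gave no sign that the numbers pair the samples, but 3 arrays in each group cannot exclude it. With the replicate block 73 genes, 0 members and 0 partner genes passed, with adjusted p = 0.0713 for Kdm7a and 0.0504 for Carm1 in limma. That fit called 1 of 16 hypoxia-inducible transcripts, 0 of 7 mast cell markers, 2 of 12 neutrophil markers and 1 of 12 monocyte and macrophage markers.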
